A study of Homo sapiens with 12 samples.

Results

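The genes described here are 43 listed genes of insulin signaling, AMP-activated protein kinase (AMPK), protein kinase A (PKA) and protein phosphatase 1 (PP1). They were taken by gene symbol from the 58735 genes of the deposited count table, and each symbol had 1 gene identifier. The cells are 293T4A, a human embryonic kidney line that carries the SV40 large T antigen and, here, a doxycycline-inducible 4EBP1-4A, a form of the translational repressor 4EBP1 whose mTOR-dependent phosphorylation sites are changed to alanine. All cultures carried this construct. RNA-seq of total RNA and ribosome footprinting (Ribo-seq, which counts the mRNA fragments that ribosomes protect, called RF reads) were made from 3 cultures treated with DMSO and 3 treated with doxycycline at 2 mg/mL, all given cycloheximide before harvest. The sample labels and the methods give 12 h of treatment, and other passages of the study give other times. Per the methods the transduced cells were selected by sorting for GFP, and a step of single-cell cloning is not given in the sources used here. The study calls its 3 replicates biological without saying how the cultures were kept apart, so p-values measure the spread between these libraries. The comparisons below ask which subunit of each kinase or phosphatase these cells express as mRNA, and whether the mRNA levels differed between doxycycline and DMSO.

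Insulin and the insulin-like growth factors bind receptor tyrosine kinases, which phosphorylate the insulin receptor substrates (IRS proteins). These recruit phosphoinositide 3-kinase (PI3K), whose lipid product brings PDK1 and AKT to the membrane. AKT phosphorylates GSK3, which releases glycogen synthase from inhibition, and FOXO transcription factors, which then leave the nucleus. AMPK, a trimer of an alpha, a beta and a gamma subunit, senses a low energy state of the cell. PKA, a tetramer of catalytic and regulatory subunits, is released by cyclic AMP. PP1, whose catalytic subunits are directed by many targeting subunits, removes phosphate from the enzymes of glycogen metabolism.

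In RNA-seq the DMSO libraries had 51519700 to 57824136 reads on genes and the doxycycline libraries 21687906 to 47862104. CPM below are reads per 1000000 reads on genes, scaled with TMM factors. A count of 0 allows up to 0.0519 to 0.138 CPM before TMM scaling (3 reads, counting error only). Doxycycline replicate 3 stood apart. It had the fewest reads on genes, although its total count was the highest, 364835992 against 182329001 to 232728174 in the other 5. Of that total 5.94% lay on genes, against 19.7% to 30.8%. The part counted as without a unique alignment was 88.4%, against 54.9% to 69.9%. Mitochondrial genes took 5.76% of its reads on genes, against 11.8% to 15.8%. Results are therefore given with and without it. EIF4EBP1, the induced gene, was at 156, 157 and 169 CPM in DMSO replicates 1, 2 and 3 and at 260.0, 281 and 267 CPM in doxycycline replicates 1, 2 and 3. The doxycycline libraries were all higher, including replicate 3. NEFL, NEFM, INA and VIM, intermediate filament genes expressed by 293T cells, were detected in all 6 libraries. Of 14 marker genes of blood, skin, liver and fibroblasts, 2 had no read, and the 14 together summed to 16.0 to 17.9 CPM with DMSO and 17.0 to 28.6 CPM with doxycycline. In bulk RNA, a lower level in every cell cannot be told apart from fewer cells that carry the mRNA.

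Of the 43 genes, 42 reached 10 reads in at least 3 RNA-seq libraries and were tested. With all 6 libraries, 0 of the 42 differed between doxycycline and DMSO at an adjusted p under 0.05 in either direction, where 0.0% of the 20552 genes tested were lower and 0.0% were higher (edgeR quasi-likelihood F-test, Benjamini-Hochberg adjusted over all genes). The lowest adjusted p of a member was 0.326, which was also the lowest of any gene tested. In the same test the induced gene EIF4EBP1 had an adjusted p of 0.326 with all 6 libraries. Without doxycycline replicate 3 it was 1.19e-05. The count of 0 with all 6 libraries therefore does not show that the members were unchanged. At an unadjusted p under 0.05, 1 member was lower, PRKAR2B, where 4.13% of all genes tested were lower, and 3 members were higher, PRKAR1B, PYGB and IRS2, where 9.58% were higher. DESeq2's Wald test called 0 of the 42 members, and 2 genes lower and 1 higher over the whole table. Without doxycycline replicate 3, 2 members fell, the PI3K subunit PIK3CA and the PKA subunit PRKAR1A, where 4.03% of the 20459 genes tested fell, and 1 member rose, the glycogen phosphorylase PYGB, where 3.4% rose. As shares of the genes tested, these counts are close to those of the whole table.

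The sizes were small. The log2 fold change was below 0.5 in size for 39 of the 42 members, and without doxycycline replicate 3 the largest was 0.28 in size. The sign was the same with and without that library for 40 of the 42, and the size was smaller without it for 36. Replicate 3 with doxycycline was the highest of the 6 libraries for 18 members and the lowest for 21, so that 39 of 42 had it at an end, as had 81.1% of all genes tested. In 9 of the 42 members all doxycycline libraries lay above all DMSO libraries, where 17.7% of all genes tested did, and in 13 all lay below, where 20.8% did. In the other 20 the groups overlapped. With a correction for the GC content of the transcripts and all 6 libraries, described below, the sign turned for 10 members, GRB2, PIK3R1, AKT1, GSK3A, PRKAA1, PRKAB1, PRKAG2, PRKACA, PPP1CA and PYGL.

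**Figure D1:**
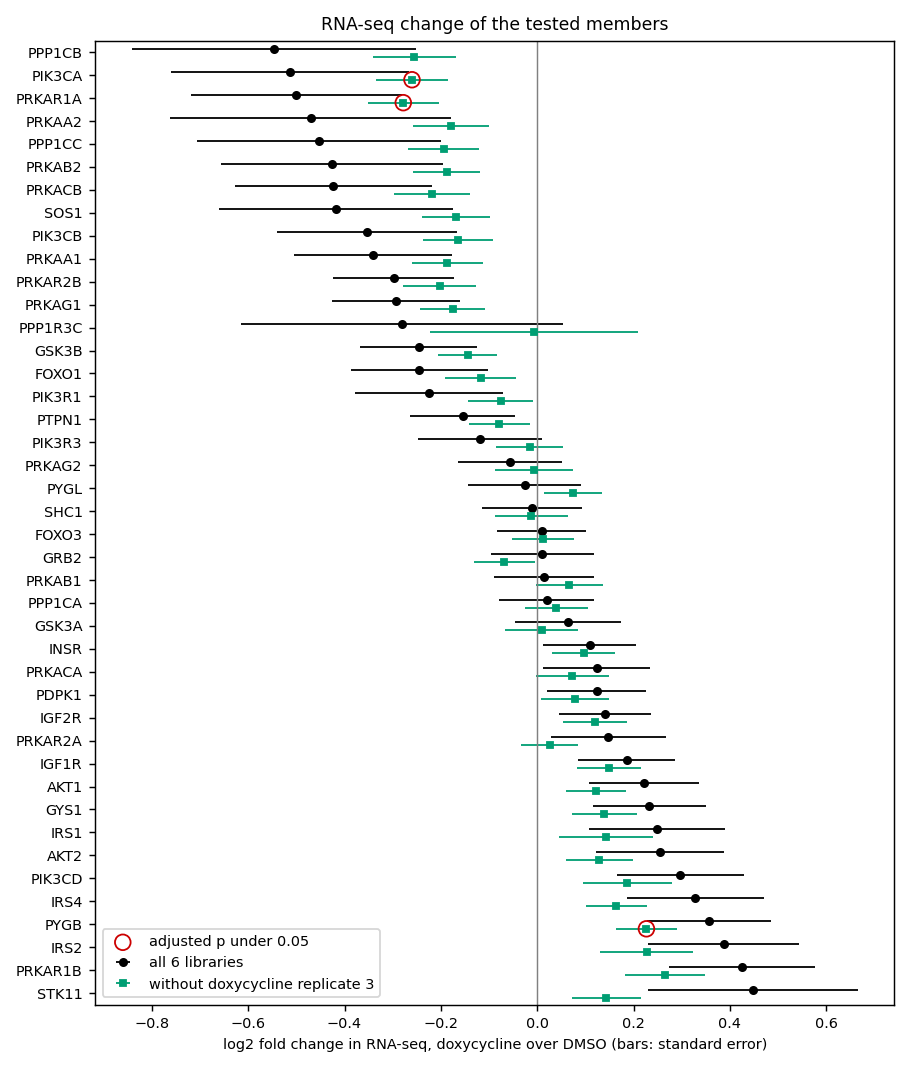
The log2 fold change in RNA-seq (x axis, doxycycline over DMSO) is plotted for the 42 tested members (y axis), ordered by the value with all 6 libraries. Black circles are the fit with all 6 libraries, green squares the fit without doxycycline replicate 3, bars are standard errors, and red rings mark PIK3CA, PRKAR1A and PYGB, called without that replicate.

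The receptors INSR, IGF1R and IGF2R had log2 fold changes of 0.11 to 0.19, and none was called. IGF2R, which carries mannose-6-phosphate enzymes and IGF2 to the lysosome and has no kinase domain, had the highest level of the 3 per length, 19.0 CPM per kilobase of exons with DMSO. It was at 405, 460.0 and 426 CPM in DMSO replicates 1, 2 and 3 and at 455, 481 and 486 CPM in doxycycline replicates 1, 2 and 3. DMSO replicate 2 lay above doxycycline replicate 1, so that the groups overlapped. Between the receptor kinases, IGF1R made 60.3% ± 1.12 (SD, n = 3) of the level per length with DMSO and INSR the rest. With doxycycline the IGF1R share was 61.5% ± 0.803 (SD, n = 3), a difference of 1.27 percentage points with overlapping groups (exact permutation p = 0.2, two-sided).

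**Figure D2:**
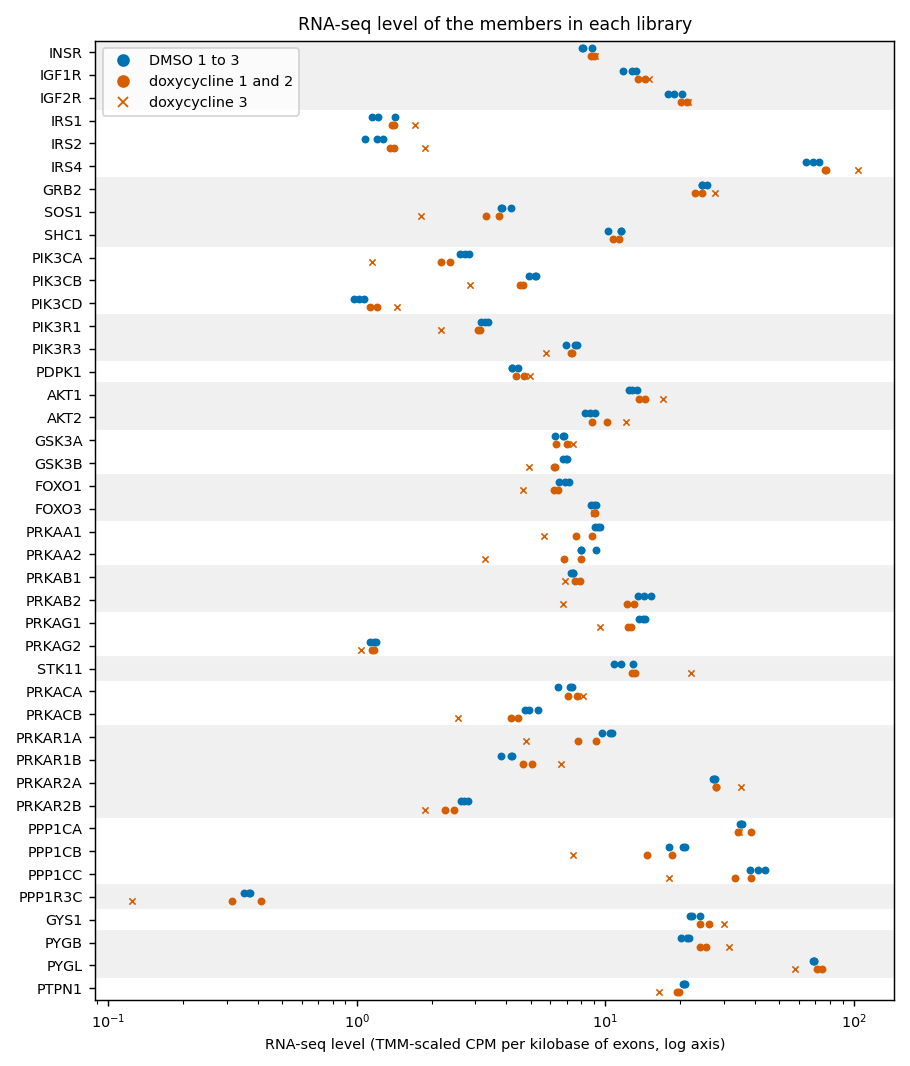
The RNA-seq level of the 42 tested members is plotted for each library in TMM-scaled CPM per kilobase of exons (x axis, log scale), with grey and white bands separating the families. Blue circles are DMSO libraries, orange circles doxycycline replicates 1 and 2 and orange crosses doxycycline replicate 3, which lies at an end of the range in 39 of the 42 rows.

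IRS4, a docking protein that is scarce in most adult tissues, dominated the insulin receptor substrates. It stood at 68.3 CPM per kilobase with DMSO, against 1.26 for IRS1 and 1.18 for IRS2, the substrates best known from muscle and liver. Its share of the 3 was 96.5% ± 0.103 (SD, n = 3) with DMSO and 96.5% ± 0.0876 with doxycycline. The share lay between 96.4% and 96.6% in all 6 libraries.

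In CPM, IRS4 was at 1061, 1207 and 1136 with DMSO and 1281, 1266 and 1727 with doxycycline (replicates 1, 2 and 3). Every doxycycline library was higher, replicate 3 by the widest margin. Its log2 fold change came to 0.33 (standard error 0.14, adjusted p = 0.326), and 0.16 without doxycycline replicate 3 (standard error 0.063, adjusted p = 0.111, edgeR quasi-likelihood F-test, Benjamini-Hochberg adjusted). IRS2, a further docking protein, was at 8.83, 10.4 and 9.79 CPM with DMSO and 11.5, 11.1 and 15.4 CPM with doxycycline. Its groups did not overlap either, at a far lower level than IRS4, with a log2 fold change of 0.39 (standard error 0.16, adjusted p = 0.326). IRS1 had a log2 fold change of 0.25 with overlapping groups.

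The adaptors GRB2 and SHC1 link the receptors to SOS1, the exchange factor that loads RAS with GTP. GRB2 had the highest level of the 3, 24.8 CPM per kilobase with DMSO. It was at 116, 120.4 and 115 CPM with DMSO and 108, 115 and 130.3 CPM with doxycycline, in overlapping groups. SOS1 was at 95.4, 87.6 and 88.2 CPM with DMSO and 85.4, 75.7 and 41.6 CPM with doxycycline. All 3 doxycycline libraries were below all 3 DMSO libraries, and replicate 3 was the lowest by far. The log2 fold change of SOS1 was -0.42 (standard error 0.24, adjusted p = 0.338), and -0.17 without doxycycline replicate 3 (adjusted p = 0.140, edgeR, Benjamini-Hochberg adjusted). GRB2 and SHC1 had log2 fold changes of 0.011 and -0.010, smaller than their standard errors of 0.11 and 0.10.

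Among the catalytic subunits of PI3K, PIK3CB (p110-beta) led with 5.13 CPM per kilobase, followed by PIK3CA (p110-alpha, often mutated in tumors) with 2.71 and PIK3CD (p110-delta, best known from leukocytes) with 1.02. PIK3CB was at 41.0, 38.6 and 41.1 CPM with DMSO and 35.5, 36.4 and 22.4 CPM with doxycycline, without overlap (log2 fold change -0.35, -0.16 without doxycycline replicate 3, neither called). PIK3CA lies on chromosome 3 from 179148114 to 179240093 on the + strand (GRCh38). It was at 48.7, 44.6 and 46.6 CPM in DMSO replicates 1, 2 and 3 and at 40.6, 37.4 and 19.8 CPM in doxycycline replicates 1, 2 and 3. Each doxycycline library was below each DMSO library, replicate 3 far below the rest.

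PIK3CA had a log2 fold change of -0.51 with all 6 libraries (standard error 0.25, adjusted p = 0.326). Without doxycycline replicate 3 it fell by 0.26 on the log2 scale with a standard error of 0.074 (adjusted p = 0.0416, edgeR quasi-likelihood F-test, Benjamini-Hochberg adjusted), and its adjusted p over the settings tried ranged from 0.0193 to 0.620. Of its reference transcript, 21.4% of 31-base windows occur elsewhere in the genome, and 19.8% of its exon bases overlap another gene, KCNMB3, on the opposite strand, where reads of the 2 genes cannot be told apart without strand. PIK3CD went the other way, from 9.78, 10.2 and 9.32 CPM with DMSO to 10.8, 11.5 and 13.8 CPM with doxycycline. This gave a log2 fold change of 0.30 (standard error 0.13, adjusted p = 0.326), without overlap.

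The regulatory subunits hold p110 inactive and bind the phosphorylated IRS proteins. PIK3R3 (p55-gamma) led with 7.39 CPM per kilobase, 69.1% ± 0.688 (SD, n = 3) of the level counted for the family with DMSO, and PIK3R1 (p85-alpha) followed with 3.27. PIK3R3 was at 55.8, 56.7 and 51.5 CPM with DMSO and 54.4, 53.9 and 42.7 CPM with doxycycline, in overlapping groups. PIK3R1 had a log2 fold change of -0.22 with all 6 libraries and -0.076 without doxycycline replicate 3. PIK3R2 (p85-beta), the member that was not tested, had 14, 8 and 2 RNA-seq reads with DMSO and 8, 7 and 8 with doxycycline. In GENCODE, 76.4% of its exon bases are shared with ENSG00000268173 on the same strand, a gene of the count table to which 7 RNA-seq reads were assigned. A read that falls on both genes is counted for neither under the usual rule of such counters, so these low numbers do not measure the level of PIK3R2. Of the exon bases of PIK3R3, 17.5% are shared on the same strand with P3R3URF-PIK3R3, to which 0 RNA-seq reads were assigned. The count of PIK3R3 may therefore leave out reads on those bases. Its lead and its share are against PIK3R1 only, and the place of PIK3R2 among the 3 is not known.

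Downstream of PI3K, PDPK1 (PDK1) was at 45.9, 48.6 and 46.1 CPM with DMSO and 47.7, 51.3 and 54.1 CPM with doxycycline, in overlapping groups. For PDPK1, 48.1% of the 31-base windows of the reference transcript occur elsewhere in the genome. AKT1 exceeded AKT2, with 12.9 against 8.68 CPM per kilobase, and made 59.8% ± 0.846 (SD, n = 3) of the pair with DMSO and 59.3% ± 1.23 with doxycycline. AKT1 was at 140.2, 147 and 137 CPM with DMSO and 150.1, 158 and 186 CPM with doxycycline. The doxycycline libraries were all higher (log2 fold change 0.22, standard error 0.11, adjusted p = 0.326, edgeR, Benjamini-Hochberg adjusted). AKT2 had a similar log2 fold change, 0.26, with overlapping groups.

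The AKT substrates GSK3A and GSK3B had near-equal levels, 6.61 and 6.90 CPM per kilobase. GSK3B made 51.1% ± 1.46 (SD, n = 3) of the pair with DMSO, but with the length of the reference transcript in place of all exons its share was 47.8%, so which of them leads depends on the length used. GSK3B was at 125, 125 and 120.2 CPM with DMSO and 111, 112 and 88.4 CPM with doxycycline, all lower with doxycycline (log2 fold change -0.25, -0.14 without doxycycline replicate 3, neither called). GSK3A had a log2 fold change of 0.065. FOXO3 was at 67.4, 70.4 and 68.8 CPM with DMSO and 69.8, 69.2 and 68.9 CPM with doxycycline, the narrowest spread with doxycycline of any tested member relative to its level, with a log2 fold change of 0.0092 (standard error 0.093). FOXO3 made 56.7% ± 1.66 (SD, n = 3) of the FOXO pair with DMSO, although 63.7% of its 31-base windows occur elsewhere and cannot hold a uniquely aligned read of that length. FOXO1 had a log2 fold change of -0.24, with doxycycline below DMSO in all libraries.

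In AMPK, the mRNAs of both catalytic alpha subunits were present at similar levels, 9.34 CPM per kilobase for PRKAA1 and 8.36 for PRKAA2, and PRKAA1 made 52.8% ± 1.54 (SD, n = 3) of the pair with DMSO. PRKAA2, the form best known from skeletal muscle and heart and named by the study for its translation, was at 85.6, 74.5 and 74.5 CPM in DMSO replicates 1, 2 and 3 and at 74.5, 63.7 and 30.7 CPM in doxycycline replicates 1, 2 and 3. Doxycycline replicate 1 lay within the DMSO range and replicate 3 far below it. Its log2 fold change came to -0.47 (standard error 0.29, adjusted p = 0.350), and -0.18 without doxycycline replicate 3 (standard error 0.080, adjusted p = 0.162, edgeR quasi-likelihood F-test, Benjamini-Hochberg adjusted). PRKAA1 was at 62.6, 59.6 and 61.3 CPM with DMSO and 57.9, 49.8 and 37.1 CPM with doxycycline. Its groups did not overlap, and its log2 fold change was -0.34, -0.19 without doxycycline replicate 3, and 0.046 with GC correction and all 6 libraries, where the sign turned. The PRKAA1 share with doxycycline was 56.2% ± 6.18 (SD, n = 3), 3.40 percentage points above DMSO (exact permutation p = 0.6). It was 63.4% in doxycycline replicate 3, and without that library the difference was -0.170 percentage points.

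The beta subunits carry the glycogen-binding module of AMPK. PRKAB2 had 14.3 and PRKAB1 7.36 CPM per kilobase of all exons, but with reference transcript lengths PRKAB2 made 42.2% of the pair, so the order rests on the length. PRKAB2 was at 83.4, 73.6 and 77.8 CPM with DMSO and 70.9, 66.7 and 37.0 CPM with doxycycline. All doxycycline libraries were lower, and the share of PRKAB2 was 66.0% ± 1.22 with DMSO and 57.9% ± 7.21 with doxycycline (SD, n = 3), without overlap (exact permutation p = 0.1). The log2 fold change of PRKAB2 was -0.43 (standard error 0.23, adjusted p = 0.328), and that of PRKAB1 was 0.014.

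The gamma subunits bind the adenine nucleotides. PRKAG1 led with 92.3% ± 0.338 (SD, n = 3) of the level of the pair per length, and PRKAG2 made the rest. PRKAG1 was at 60.1, 57.0 and 59.0 CPM with DMSO and 52.6, 51.5 and 39.5 CPM with doxycycline, without overlap (log2 fold change -0.29, -0.18 without doxycycline replicate 3, neither called). Other genes overlap 61.8% of the exon bases of PRKAG1. The larger part, 49.5%, is shared with ENSG00000288710, a gene absent from the count table. DDN-AS1, on the opposite strand, overlaps 12.3% and had 55 RNA-seq reads. STK11 (LKB1), the kinase that activates AMPK, went the other way. It was at 95.6, 114 and 102 CPM with DMSO and 113, 116 and 195 CPM with doxycycline, where replicate 3 alone lay far above the others and replicate 1 lay within the DMSO range. The log2 fold change of STK11, 0.45 (standard error 0.22, adjusted p = 0.326), was the highest of the 42 with all 6 libraries and was 0.14 without doxycycline replicate 3 (adjusted p = 0.217, edgeR, Benjamini-Hochberg adjusted).

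In PKA, the catalytic subunit PRKACA made 58.3% ± 3.31 (SD, n = 3) of the level per length with DMSO and PRKACB the rest. PRKACA, named by the study for its translation, was at 47.2, 52.9 and 54.0 CPM with DMSO and 51.8, 56.4 and 59.7 CPM with doxycycline. The groups overlapped, and the log2 fold change was 0.12 (standard error 0.11, adjusted p = 0.484). PRKACB was at 36.8, 32.4 and 33.6 CPM with DMSO and 30.4, 28.6 and 17.5 CPM with doxycycline. All doxycycline libraries were lower, with a log2 fold change of -0.42 (standard error 0.20, adjusted p = 0.326), and -0.22 without doxycycline replicate 3 (adjusted p = 0.0922, edgeR, Benjamini-Hochberg adjusted). The PRKACA share was 67.5% ± 7.71 with doxycycline, 9.15 percentage points above DMSO and 4.80 above it without replicate 3. With GC correction and all 6 libraries the difference in share was -0.0713 percentage points and the log2 fold change of PRKACA -0.025, so that both signs turned.

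The regulatory subunits of PKA hold the catalytic subunit with an inhibitor site that resembles a substrate. Type I subunits have an alanine or a glycine at the position that a substrate offers for phosphorylation, and type II subunits have a serine there and are themselves phosphorylated. The coding sequence of this site is shown because it tells the 4 mRNAs of the family apart by type, as read from the reference transcripts of GENCODE on GRCh38. Each line has 30 bases in the sense of the mRNA, and capitals mark the codon of the site residue.
PRKAR1A: aggcgacgaggtGCTatcagcgctgaggtc
PRKAR1B: cgccggcgaggaGGCgtgagtgccgaggtg
PRKAR2A: aatagacgagtaTCAgtctgtgctgagacc
PRKAR2B: acaaggcgtgccTCAgtatgtgcagaagct
The site lies in exon 3 of PRKAR1A (17:68522861-68522890, + strand) and exon 3 of PRKAR1B (7:680592-680621, - strand). It spans the junction of exons 2 and 3 of PRKAR2A (3:48794036-48807664, - strand) and of PRKAR2B (7:107070301-107121965, + strand). The codon in capitals is that of residue 99 in PRKAR1A (alanine), PRKAR1B (glycine) and PRKAR2A (serine), and of residue 114 in PRKAR2B (serine).

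The type II subunit PRKAR2A was the main regulatory mRNA of these cells, 27.3 CPM per kilobase and 61.7% ± 0.669 (SD, n = 3) of the 4 with DMSO. PRKAR1A (type I) made 23.1% ± 1.01, PRKAR1B 9.15% ± 0.496 and PRKAR2B 6.11% ± 0.130. PRKAR2A still led with reference transcript lengths, at 43.4%, with PRKAR1A at 35.9%. The 2 genes with a serine codon in capitals thus held most of the level, through PRKAR2A.

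PRKAR1A, on chromosome 17 from 68511780 to 68551319 on the + strand (GRCh38), was at 134, 122 and 131 CPM in DMSO replicates 1, 2 and 3 and at 115, 97.7 and 60.2 CPM in doxycycline replicates 1, 2 and 3. Each doxycycline library was lower than each DMSO library. The DMSO mean was 129 ± 6.13 CPM and the doxycycline mean 90.9 ± 28.0 CPM (SD, n = 3), or 106 CPM for doxycycline replicates 1 and 2. It had a log2 fold change of -0.50 with all 6 libraries (standard error 0.22, adjusted p = 0.326). Without doxycycline replicate 3 PRKAR1A fell by 0.28 on the log2 scale with a standard error of 0.073 (adjusted p = 0.0326, edgeR quasi-likelihood F-test, Benjamini-Hochberg adjusted), and its adjusted p ranged from 0.0146 to 0.620 over the settings tried.

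The other type I gene, PRKAR1B, best known from brain, was at 18.9, 20.9 and 20.8 CPM with DMSO and 23.3, 25.4 and 33.0 CPM with doxycycline. All doxycycline libraries were higher. This gave a log2 fold change of 0.43 (standard error 0.15, adjusted p = 0.326), and 0.26 without doxycycline replicate 3 (adjusted p = 0.0579 with edgeR's quasi-likelihood test and 0.0300 with DESeq2's Wald test, both with Benjamini-Hochberg adjustment). PRKAR2A, named by the study for its translation, was at 235, 239 and 239.7 CPM with DMSO and 243, 242 and 306 CPM with doxycycline. Its doxycycline replicates 1 and 2 exceeded the DMSO libraries by little and replicate 3 by much, and the log2 fold change was 0.15, and 0.026 without replicate 3 (standard error 0.060, adjusted p = 0.831). PRKAR2B had a log2 fold change of -0.30 with all doxycycline libraries lower. In PRKAR2A, 10.5% of 31-base windows occur elsewhere in the genome, and PRKAR1A has 1 named pseudogene.

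In PP1, PPP1CC (the gamma catalytic subunit) had the highest level per length, 41.0 CPM per kilobase, with PPP1CA (alpha) at 35.2 and PPP1CB (beta) at 19.8. PPP1CC, named by the study for its translation, was at 303, 263 and 283 CPM in DMSO replicates 1, 2 and 3 and at 266, 230.3 and 125 CPM in doxycycline replicates 1, 2 and 3. Doxycycline replicate 1 lay within the DMSO range, replicate 2 below it and replicate 3 far below it. Its log2 fold change came to -0.45 (standard error 0.25, adjusted p = 0.332), and -0.19 without doxycycline replicate 3 (standard error 0.074, adjusted p = 0.105, edgeR quasi-likelihood F-test, Benjamini-Hochberg adjusted). PPP1CB had the lowest log2 fold change of the 42 with all 6 libraries, -0.55 with a standard error of 0.29, and -0.26 without doxycycline replicate 3 (adjusted p = 0.0724). PPP1CA had a log2 fold change of 0.019. As a share of the 3, PPP1CA was 36.7% ± 1.45 with DMSO and 46.5% ± 10.3 with doxycycline (SD, n = 3). PPP1CA was the leading PP1 mRNA in doxycycline replicates 2 and 3, at 44.5% and 57.6%, and PPP1CC in the other 4 libraries, but the shares of DMSO and doxycycline overlapped (exact permutation p = 0.2).

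PPP1R3C, which directs PP1 to glycogen, was the lowest tested member, at 0.934, 0.895 and 0.945 CPM with DMSO and 1.04, 0.799 and 0.315 CPM with doxycycline. In glycogen synthesis, GYS1, the synthase of muscle and most other tissues, was at 92.5, 102 and 94.8 CPM with DMSO and 102, 111 and 127 CPM with doxycycline, all higher, replicate 1 by less than the rounding shown (log2 fold change 0.23, 0.14 without doxycycline replicate 3, neither called). In glycogen breakdown, PYGL, the liver form of phosphorylase, made 76.6% ± 0.565 (SD, n = 3) of the level of the phosphorylase pair with DMSO. PYGL was at 312, 315 and 314 CPM with DMSO and 339.6, 322 and 263 CPM with doxycycline. Doxycycline replicates 1 and 2 were above the DMSO libraries and replicate 3 below them, and the log2 fold change was -0.026 with all 6 libraries and 0.074 without replicate 3.

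PYGB, the brain form of phosphorylase, lies on chromosome 20 from 25248085 to 25298012 on the + strand (GRCh38). It was at 90.1, 96.8 and 94.5 CPM in DMSO replicates 1, 2 and 3 and at 107, 113 and 141 CPM in doxycycline replicates 1, 2 and 3. All doxycycline libraries were higher. The DMSO mean was 93.8 ± 3.40 CPM and the doxycycline mean 120.2 ± 18.1 CPM (SD, n = 3). It had a log2 fold change of 0.36 (standard error 0.13, adjusted p = 0.326). Without doxycycline replicate 3 it rose by 0.23 (standard error 0.064, adjusted p = 0.0401, edgeR quasi-likelihood F-test, Benjamini-Hochberg adjusted), and its adjusted p ranged from 0.0133 to 0.620 over the settings tried. PTPN1 (PTP1B), the phosphatase that dephosphorylates the insulin receptor, was at 84.1, 82.8 and 83.9 CPM with DMSO and 79.8, 78.8 and 66.7 CPM with doxycycline, all lower, with a log2 fold change of -0.15 (adjusted p = 0.387).

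The shares of the subunits in 14 families were compared as single values, 25 shares in all. In 13 of them the libraries of the 2 treatments did not overlap. Each had a p of 0.1 in the exact permutation test (two-sided), the smallest p that 3 libraries against 3 allow. The lowest p adjusted over the 25 was 0.192. Of all single genes tested, 17.7% had every doxycycline library above and 20.8% every one below. These are levels of single genes, a measure unlike shares, and no such background was computed for shares. Shares within a family depend on each other, so the 13, which include every PKA regulatory subunit, are not separate results. Those of IRS2, GSK3B, PRKACA and PRKAR1B turned in sign with GC correction. The largest difference in size was 9.77 percentage points, for PPP1CA. In the PKA regulatory family the PRKAR1A share was 16.2% ± 5.64 with doxycycline (SD, n = 3) and 9.88% in replicate 3. Its difference from DMSO was -6.86 percentage points, and -3.69 without that replicate. Among the PI3K catalytic subunits, the PIK3CD share was 11.5% ± 0.816 with DMSO and 18.5% ± 6.94 with doxycycline, and 26.5% in replicate 3, without overlap. The PYGL share was 71.4% ± 5.84 with doxycycline, -5.29 percentage points from DMSO and -1.97 without replicate 3. The leading subunit of the PKA, PI3K, AKT, FOXO, IRS and phosphorylase families was the same in all 6 libraries.

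**Figure D3:**
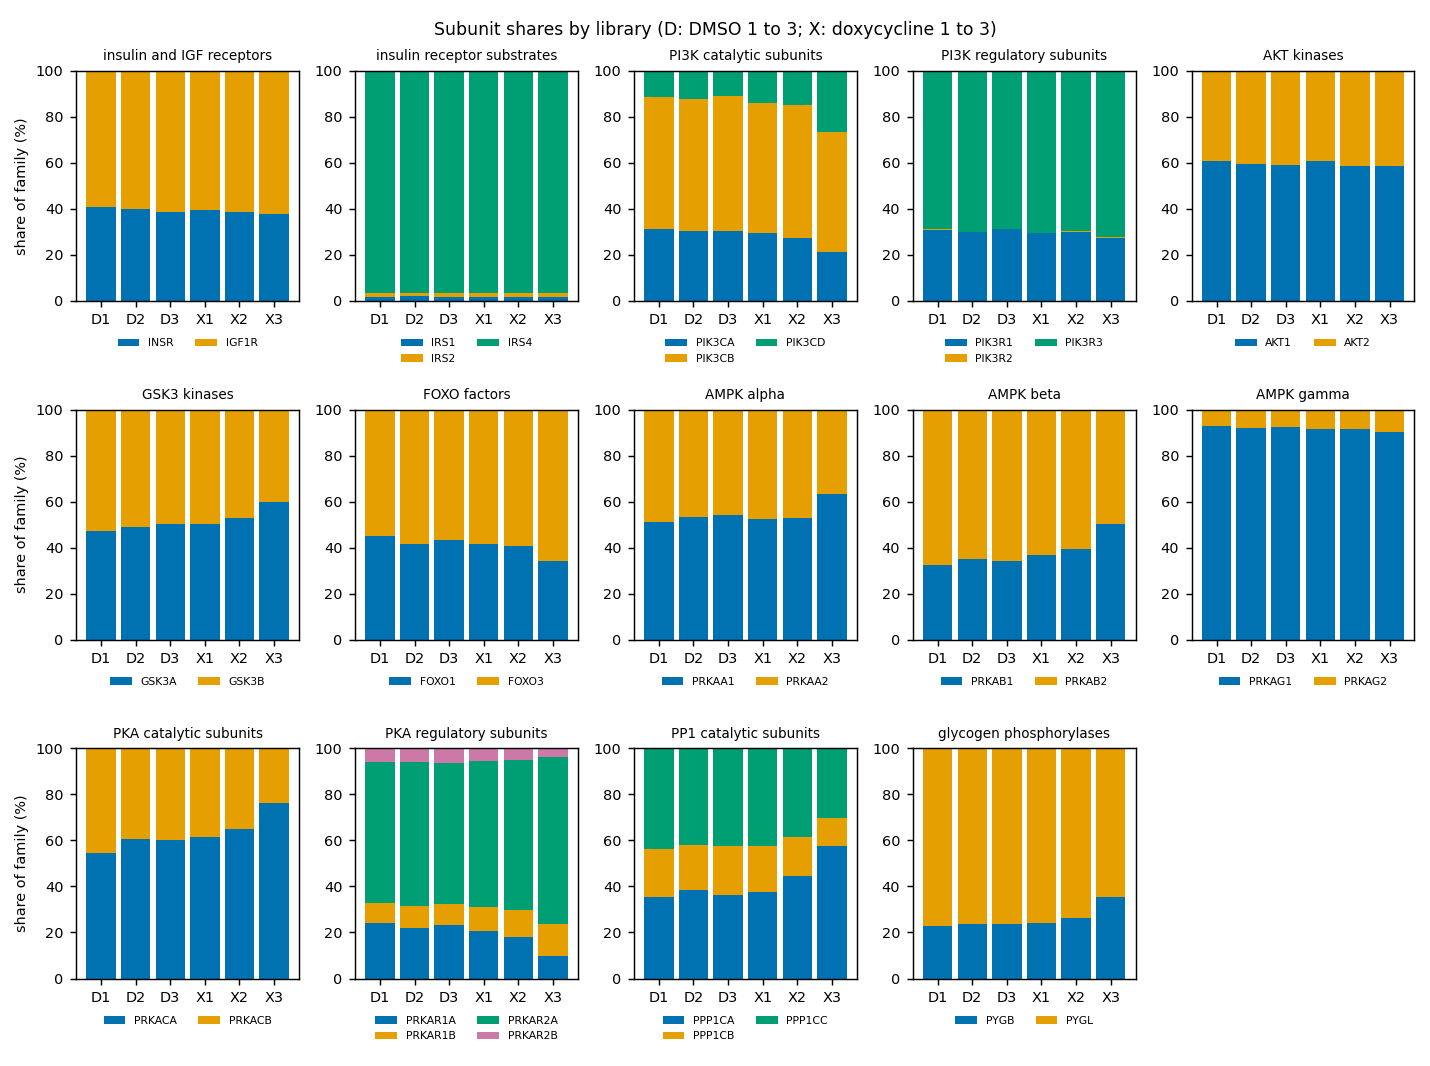
Each panel is a family, and each bar a library (D1 to D3 are DMSO, X1 to X3 doxycycline), split into the percent of the family's level per kilobase of exons held by each gene. IRS4 fills 96.4% to 96.6% of its panel in every library, and X3 departs most from the DMSO bars in the PKA, PP1 and AMPK beta panels.

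The changes ran with the base composition of the mRNAs. Across the 42 members, the log2 fold change and the GC content of the reference transcript had a Pearson r of 0.885 and a Spearman rho of 0.865 with all 6 libraries, and 0.837 and 0.826 without doxycycline replicate 3. Over all genes with a reference transcript the Pearson r was 0.620 (20396 genes) and 0.455 (20305 genes). Genes share the libraries and are no replicates of each other, so these values are descriptions without a p. Of the 21 members with a GC content of 48.8% to 67.0%, 19 had a log2 fold change above 0, with a median of 0.14. Of the 21 with 35.2% to 48.7%, 19 were below 0, with a median of -0.30. Without doxycycline replicate 3 these medians were 0.12 and -0.17.

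Within most families the tested gene with the higher GC content also had the higher log2 fold change. Examples are PRKAR1A (38.6% GC, -0.50) and PRKAR1B (62.9% GC, 0.43), and PIK3CA (35.7% GC, -0.51) and PIK3CD (57.4% GC, 0.30). This order held in both PI3K families, GSK3, FOXO, AMPK alpha and beta, both PKA families, PP1, the phosphorylases, and between INSR and IGF1R. The AMPK gamma, AKT, insulin receptor substrate and adaptor families did not follow this order, nor did IGF2R against INSR. PRKAG1, at 47.3% GC, had a log2 fold change of -0.29, and PRKAG2, at 46.8% GC, one of -0.057. AKT1 (61.2% GC, 0.22) was below AKT2 (58.0% GC, 0.26), SHC1 (56.5% GC, -0.010) below GRB2 (51.8% GC, 0.011), and IRS1 (50.8% GC, 0.25) below IRS4 (48.7% GC, 0.33). Between AKT1 and AKT2, SHC1 and GRB2, and IRS1 and IRS4, the difference was smaller than the standard error of either gene. IRS4, at 48.7% GC, stood above the other members of like composition. With the GC trend of each library taken into the fit as an offset, an alternative chosen after seeing the data, 0 of the 42 members were called without doxycycline replicate 3, where 374 genes of the table fell and 383 rose. In that fit the log2 fold change was -0.062 for PIK3CA, with an adjusted p of 0.523. It was -0.13 for PRKAR1A (adjusted p = 0.136) and 0.12 for PYGB (adjusted p = 0.105, edgeR, Benjamini-Hochberg adjusted). IRS4 kept its size, 0.37 with all 6 libraries and 0.16 without replicate 3 (adjusted p = 0.0920). The GC trend of a library was taken against the mean of the libraries fitted. The offset therefore also takes out any doxycycline change that follows GC content. Such a change and a GC trend of the libraries cannot be told apart by smaller sizes, turned signs or lost calls under the offset. The share of reads without a unique alignment was also higher in every doxycycline library (65.4% to 88.4%) than in every DMSO library (54.9% to 62.3%), and its part in these changes was not tested.

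**Figure D4:**
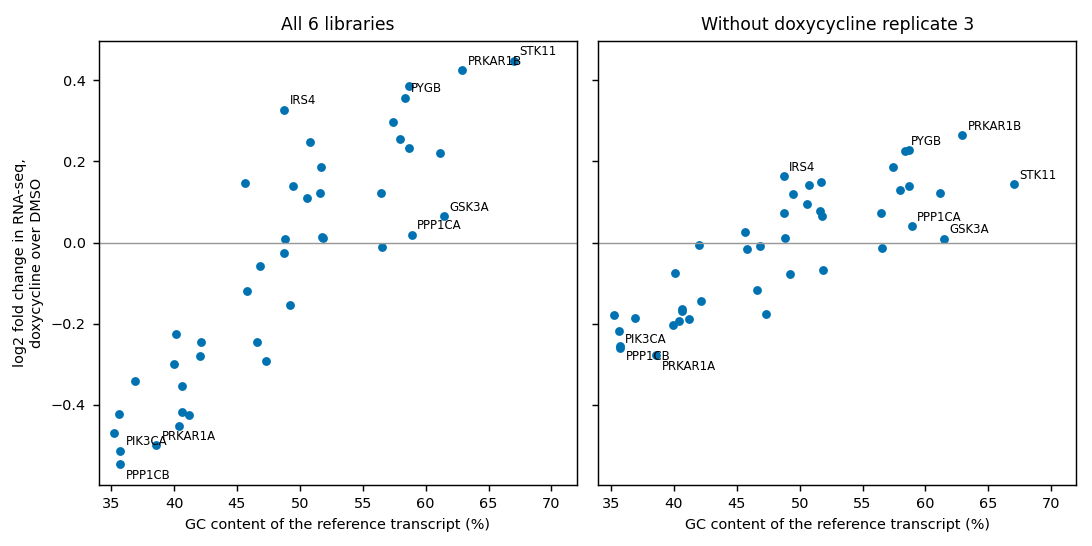
The log2 fold change in RNA-seq (y axis, doxycycline over DMSO) is plotted against the GC content of the reference transcript in percent (x axis) for the 42 tested members, with all 6 libraries on the left and without doxycycline replicate 3 on the right. In both panels the points run from PIK3CA and PPP1CB at the lower left to PRKAR1B and STK11 at the upper right, and IRS4 lies above its neighbours.

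Scaling moved the directions as well. When library totals replaced TMM factors, the median log2 fold change of all genes moved from -0.035 to 0.097, and without doxycycline replicate 3 the table had 339 genes lower and 1442 higher, against 825 and 696 with TMM factors. In that setting 0 members fell and 3 rose, PYGB, PRKAR1B and IRS4, with adjusted p of 0.0155, 0.0266 and 0.0363 (edgeR, Benjamini-Hochberg adjusted). PYGB was the member called both with TMM factors and with library totals.

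Beside the members, 201 other genes of these pathways were examined in 10 lists, and 183 were tested. With all 6 libraries 0 were called by edgeR and 0 by DESeq2's Wald test. At an unadjusted p under 0.05 in edgeR, 8 of the 183 were lower, where 4.13% of all genes tested were lower. Of the 183, 27 were higher, a larger share than the 9.58% of all genes tested. Without doxycycline replicate 3, 7 of 182 fell and 15 rose, where 4.03% of all genes tested fell and 3.4% rose, with a median log2 fold change of -0.0061 against -0.0099 for all genes. With the GC offset 3 fell and 3 rose. The counts below are those without doxycycline replicate 3 and without the offset, to be read against the same 4.03% and 3.4% of all genes (edgeR quasi-likelihood F-test, Benjamini-Hochberg adjusted).

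Ligands, receptors, adaptors and docking proteins gave 0 lower and 2 higher of 18 (all genes 4.03% lower and 3.4% higher), with a median log2 fold change of 0.0050. The genes called were SH2B2, an adaptor of the insulin receptor (log2 fold change 0.58, from 4.27 CPM with DMSO to 6.41 CPM as the mean of doxycycline replicates 1 and 2), and TRIP10 (log2 fold change 0.35), a CDC42 effector. In the RAS and ERK list there were 1 lower and 0 higher of 13, with a median log2 fold change of -0.047, through the GTPase NRAS (log2 fold change -0.30, from 179.6 to 146 CPM). The negative regulators of the receptor gave 1 lower and 0 higher of 10, with a median log2 fold change of -0.044, through SOCS4 (log2 fold change -0.25).

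AMPK partners and substrates had 0 lower and 4 higher of 24 (all genes 4.03% lower and 3.4% higher), with a median log2 fold change of 0.094. They included ACACB, the mitochondrial acetyl-CoA carboxylase that AMPK inhibits (log2 fold change 0.40, from 37.7 to 49.9 CPM, adjusted p = 0.0107 by edgeR), the CREB coactivator CRTC1 (log2 fold change 0.33) and the kinase MARK4 (log2 fold change 0.29). For PKA inhibitors, anchors, cyclases and phosphodiesterases the counts were 2 lower and 3 higher of 32, with a median log2 fold change of -0.024. The inhibitor PKIA (log2 fold change -0.37, from 22.3 to 17.3 CPM) and the cyclic AMP-responsive factor CREM (log2 fold change -0.30) fell. The phosphodiesterase PDE4A (log2 fold change 0.42) and the adenylyl cyclases ADCY1 (log2 fold change 0.24) and ADCY3 (log2 fold change 0.22) rose.

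PP1 regulatory subunits had 1 lower and 4 higher of 27 (all genes 4.03% lower and 3.4% higher), with a median log2 fold change of 0.022. The inhibitor PPP1R2 fell (log2 fold change -0.31, from 52.7 to 42.6 CPM), and PPP1R13L (log2 fold change 0.41), the myosin phosphatase subunit PPP1R12C (log2 fold change 0.31) and the synaptic targeting subunit PPP1R9B (log2 fold change 0.28) were among those that rose. Of the other genes of glycogen metabolism there were 0 lower and 0 higher of 14, with a median log2 fold change of 0.083. FOXO target genes gave 2 lower and 1 higher of 19, with a median log2 fold change of -0.14, where SESN3 (log2 fold change -0.29) and CCNG2 (log2 fold change -0.28) fell and KLF15 (log2 fold change 0.25) rose. CREB target genes gave 1 lower and 0 higher of 13, with a median log2 fold change of -0.021, and the gene called was again CREM, which is in both lists.

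Ribo-seq gave few reads on these genes. The 6 libraries held 9529 RF reads on the 43 members, against 1400330 RNA-seq reads, and 197 without FOXO3. In all, 13 members had no RF read, 23 had 1 to 9 and 7 had at least 10, and the median was 2. In the Ribo-seq libraries, which held 210186 to 1002424 reads on genes, a count of 0 allows 2.99 to 14.3 CPM (3 reads, counting error only). No member had RF reads in all 6 libraries, and 11 had them in at least 3. Of the members tested in RNA-seq 16.7% reached 10 RF reads, as did 5.74% of all genes tested in RNA-seq.

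FOXO3 had 1, 9220 and 55 RF reads with DMSO and 55, 1 and 0 with doxycycline (replicates 1, 2 and 3 each). DMSO replicate 2 alone held 98.8% of them, so the counts do not measure the translation of FOXO3 in a treatment. Reads piled up in 1 library for most of the other members with at least 10. PIK3R3 had 0, 32 and 1 RF reads with DMSO and 2, 0 and 0 with doxycycline. IGF2R had 25, 1 and 0 RF reads with DMSO and 3, 0 and 0 with doxycycline.

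The study names 4 of these genes, from RF reads set against total RNA. It reports lower translation with 4EBP1-4A for PRKAA2 and PRKAR2A, and higher translation for PRKACA and PPP1CC. Of these, PRKAA2 had 0, 16 and 1 RF reads with DMSO and 0, 0 and 0 with doxycycline, with 16 of 17 in DMSO replicate 2. PRKACA had 0, 1 and 0 RF reads with DMSO and 1, 8 and 1 with doxycycline, with 8 of 11 in doxycycline replicate 2. PRKAR2A had 0, 0 and 9 RF reads with DMSO and 0, 0 and 0 with doxycycline. In each of these genes, and in PPP1CC with 0, 0 and 0 RF reads with DMSO and 9, 0 and 0 with doxycycline, a single library held most or all of the reads. The reads were spread over more libraries in GRB2, with 2, 5 and 2 RF reads with DMSO and 0, 0 and 4 with doxycycline, and AKT1, with 3, 2 and 2 RF reads with DMSO and 0, 3 and 0 with doxycycline. INSR, IRS1, SOS1, PIK3CA, PIK3R1, PIK3R2, FOXO1, PRKAB1, PRKAG1, PRKACB, PRKAR1A, PPP1R3C and PYGL had 0 RF reads in the 6 libraries. With so few reads, no test of a difference in ribosome occupancy between doxycycline and DMSO was made.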

How the data were processed

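Ribo-seq and RNA-seq libraries of 293T4A cells were examined, 3 with DMSO and 3 with doxycycline in each assay. The deposited counts are whole reads per gene, raw and not normalized. Per the methods, the authors trimmed and filtered the reads, removed RF reads aligned to ribosomal RNA, aligned the rest to GRCh38 with STAR and kept uniquely aligned reads on exons. The labels name GRCh37 and Ensembl. A strand setting of the counter is not given in the sources used here. The deposited table of translation efficiency holds the authors' own ratios, fold changes and p-values and was used here only for gene names. Reads without a gene (69.1% to 94.1% of RNA-seq and 97.1% to 99.1% of Ribo-seq reads), 92 spike-in rows and 89 other rows without a human gene entered neither the library sizes nor the tests.

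Samples were grouped by their labels. TMM scaling and a quasi-likelihood F-test, both from edgeR (version 4.0.16, with limma 3.58.1 under R 4.3.3), were applied to the whole RNA-seq table, for genes reaching 10 reads in 3 or more libraries, with Benjamini-Hochberg adjustment at 0.05. No 2 libraries held the same counts. Levels per length used all exon bases in GENCODE release 44 on GRCh38, in which 58207 of 58735 genes (99.1%) matched. For shares, a two-sided exact permutation test was used, with p adjusted over the 25 shares. The windows of 31 bases were looked up in the whole GRCh38 sequence on both strands. The Ribo-seq counts are given as read numbers without a test.

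The members, the lists and the rule for naming genes were chosen with earlier results of these data known. Values in every library are given for the subunit with the highest level per length in each family, for PRKAA2, PRKAR2A, PRKACA and PPP1CC, for members called with all 6 libraries or without doxycycline replicate 3, for up to 5 members in each direction whose groups did not overlap, for members not tested and for members with at least 10 RF reads. In each other list, up to 3 genes a direction are named. The result of 1 list is not reported here. The alternatives were DESeq2 1.42.0 size factors and Wald test, a replicate block, library totals, a minimum of 60 reads, no filter and each library left out. TMM factors over the filtered genes, both replicates 3 left out, a GC offset and combinations of these with doxycycline replicate 3 left out were added after seeing the data. The test was tried on simulated data first. Those data had larger changes than the members and held no outlying library and no GC trend, so the trial does not bear on these features. Python 3.11.15, numpy 2.4.6, scipy 1.17.1, pandas 2.3.3 and matplotlib 3.10.9 were used. RiboDiff was not run.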

Additional observations from a re-analysis of the deposited data

How the results depend on the processing

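With all 6 libraries, the count of members called was 0 in each direction under every scaling, filter and test tried. The replicate block called 0 members lower and 0 higher, and 0 and 0 of all genes. Every other edgeR setting with all 6 libraries also called 0 of all genes in each direction. These counts of 0 therefore do not show that the members were unchanged. The correlations of same-numbered libraries' deviations from their group means were 0.457, -0.444 and 0.027. For DMSO replicate 1 they were 0.457, 0.484 and -0.511 with doxycycline replicates 1, 2 and 3. Deviations from a mean of 3 libraries depend on each other, so these values cannot decide whether replicate numbers pair the libraries. Over all genes DESeq2's Wald test gave 2 lower and 1 higher. Leaving out each library in turn gave 0 to 2 members lower and 0 to 1 higher, 0 to 7 and 0 to 15 of the other pathway genes, and 0 to 825 and 0 to 696 of all genes, with calls only without doxycycline replicate 3. Settings combined with its omission were added after seeing the data. Without replicate 3 of both treatments, 0 members, 4 and 5 other pathway genes and 386 and 396 of all genes were called lower and higher. DESeq2's Wald test without doxycycline replicate 3 gave 2 and 2, 11 and 18, and 1054 and 996, adding PRKAR1B. TMM factors over the filtered genes without it gave 2 and 1, 5 and 16, and 673 and 769. Library totals without it gave 0 and 3, 2 and 28, and 339 and 1442. GC correction without it gave 0 and 0, 3 and 3, and 374 and 383.

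Settings combined with the omission of doxycycline replicate 3 were summarised as counts, and signs were compared over the other alternatives. There the sign of the log2 fold change held for 28 of the 42 tested members wherever a value was given. It turned for 14, all with a main value of at most 0.34 in size. With GC correction and all 6 libraries the values were -0.034 for GRB2, 0.058 for PIK3R1, -0.045 for AKT1, -0.20 for GSK3A, 0.046 for PRKAA1, -0.027 for PRKAB1, 0.024 for PRKAG2, -0.025 for PRKACA, -0.18 for PPP1CA and 0.0036 for PYGL. GRB2 was at -0.068 and PYGL at 0.074 without doxycycline replicate 3. With library totals SHC1 was at 0.13, PIK3R3 at 0.014, PRKAG2 at 0.081 and PYGL at 0.11. With DESeq2 size factors, TMM factors over the filtered genes and DESeq2's Wald test SHC1 was at 0.031, 0.033 and 0.031 and PYGL at 0.010, 0.012 and 0.010. With libraries left out, the values ranged from -0.078 to 0.079 for GRB2, -0.064 to 0.031 for SHC1, -0.0062 to 0.026 for FOXO3, -0.033 to 0.072 for PRKAB1, -0.092 to 0.013 for PRKAG2, -0.039 to 0.062 for PPP1CA, -0.61 to 0.012 for PPP1R3C and -0.093 to 0.077 for PYGL.

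The difference in share, in percentage points, turned with GC correction for IRS2 (-0.184), PIK3R1 (1.02), PIK3R3 (-1.02), GSK3B (3.13), PRKACA (-0.0713), PRKAR1B (-0.206) and PPP1CB (0.0814). With libraries left out it ranged from -0.0577 to 0.0374 for IRS4 (-0.0494 without doxycycline replicate 3) and from -0.170, without that library, to 5.22 for PRKAA1. The causes of these turns were not tested. Depth limits the RNA-seq counts of PPP1R3C and the Ribo-seq counts of the members other than FOXO3, whose RF reads lie almost wholly in 1 library.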
